A study of Mus musculus with 6 samples.

Results

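The genes described here encode the protein-folding machinery of the endoplasmic reticulum (ER), the sensors of the unfolded protein response (UPR) and the components of ER-associated degradation (ERAD). They were chosen as a list of 49 symbols, sorted by function into sensors, chaperones, disulfide isomerases, translocon and ERAD genes. The symbols of 48 matched a row among the 23203 loci of the expression table, and all 48 reached the mean of 1 FPKM (fragments per kilobase of transcript, scaled to library size) required for testing, as did 10228 loci in all. Vimp matched no row. The row named H47, a RefSeq synonym of that gene, is given beside the ERAD genes and is not counted.

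The cells were naive mouse CD4 T cells, activated for 48 h by plate-bound anti-CD3e at 10 µg/ml together with anti-CD28 at 1 µg/ml. The medium held the cytokines TGFb1 at 2.5 ng/ml, IL-23 at 10 ng/ml and IL-6 at 20 ng/ml. These conditions polarize towards Th17 cells, the helper T cells that make IL-17, and both groups received them. The vehicle group, with 3 libraries, had DMSO added, and the other group, also with 3, had 250 µM of 2DG (2-deoxyglucose), an analogue of glucose that blocks glycolysis. The labels give no strain, age or genotype, and they do not say whether libraries came from separate mice or cultures, so the spread behind each p-value may be technical only. The question addressed here is how ER folding and degradation transcripts differed between cultures with 2DG and with vehicle.

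The ER is where secreted and membrane proteins are threaded through the Sec61 channel, glycosylated, folded by chaperones such as BiP and joined by disulfide bonds. Proteins that fail to fold are drawn back into the cytosol by ERAD and degraded by the proteasome. When unfolded proteins accumulate, the sensors IRE1, PERK and ATF6 signal to the nucleus: IRE1 splices the mRNA of the factor XBP1, ATF6 is cut in the Golgi to release a transcription factor, and PERK slows translation. 2DG can also stand in for mannose in N-glycan synthesis, and it is used in cell biology to induce ER stress; neither glycolysis nor glycosylation was measured in these data. Lymphocytes that secrete much protein are known to carry a large ER and to depend on this system.

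Neither splicing of Xbp1 nor cleavage of ATF6 can be read from one value per locus, so the values below are transcript levels only. Absolute depth is unknown, because the table holds no counts. The FPKM sum of a library ran from 1469420 to 1958740, of which small RNA genes made up 69.8% to 76.1%, and the 75th percentile ran from 10.9 to 11.6 FPKM. Of the CD4 T cell markers 5 of 6 had a row, and their summed level was 568 to 694 FPKM in vehicle cultures and 571 to 722 FPKM in 2DG cultures. The 6 Th17 markers summed to 1730 to 2008 FPKM in vehicle cultures and 2371 to 3090 FPKM in 2DG cultures, so this list moved with the groups; its part in the results below was not tested. Plasma cell markers, of which all 4 had a row, summed to 2.78 to 4.84 FPKM and 2.56 to 3.70 FPKM. The summed levels of the B cell (5 of 5 genes), CD8 T cell (2 of 2), NK cell (3 of 3), myeloid (5 of 5) and dendritic cell (4 of 4) lists reached at most 5.51 FPKM in any library. Klrb1c of NK cells was listed at 0 in every library. In bulk RNA, a change in the share of a cell type and a change in RNA per cell cannot be told apart.

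The differences that passed the test lay among the chaperones and in ERAD, and no sensor, isomerase or translocon transcript passed. By limma with Benjamini-Hochberg adjustment over all loci tested, 5 of the 48 members rose and 0 fell. The risers were the chaperone genes Hspa5, Hyou1, Dnajc3 and Creld2 and the ERAD gene Herpud1, by 1.48-fold to 1.90-fold in mean FPKM. They are 10.4% of the members, against 1.53% of all loci tested that were called higher and 1.19% called lower. At an unadjusted p under 0.05, 22 of the 48 members were higher and 4 lower, against 928 and 902 of the 10228 loci tested. These counts over all loci are also the background for the unadjusted counts of each class and list below. The 2DG libraries lay wholly above the vehicle libraries for 24 members (50% of 48, against 11.9% of all loci tested) and wholly below them for 5 (10.4%, against 11.8%), and the groups overlapped for 19. The shares over all loci of genes called and of genes wholly apart are likewise the background for such counts below. Derl3, among the 24, met the required mean of 1 FPKM only through its 2DG libraries (means of 0.66 FPKM with vehicle and 1.80 FPKM with 2DG). The median log2 fold change was 0.23 over the members and -0.01 over all loci tested.

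How many members passed varied with the libraries used and with the processing. It was 3 without vehicle replicate 1, 3 without vehicle replicate 2, 2 without vehicle replicate 3, 3 without 2DG replicate 1, 2 without 2DG replicate 2 and 3 without 2DG replicate 3. It was 11 when small RNA genes were left out of the fit and 2 when libraries were rescaled to equal FPKM sums. Small RNA genes made up 69.8% to 76.1% of those sums, so they weigh heavily in that rescaling. The number of all loci called higher varied too. It was 156 in the main fit, 262 without small RNA genes, 95 with equal FPKM sums and 52 to 98 with 1 library left out. In each of these fits 0 members were called lower. Herpud1 was the 1 member called in every one of them.

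**Figure D1:**
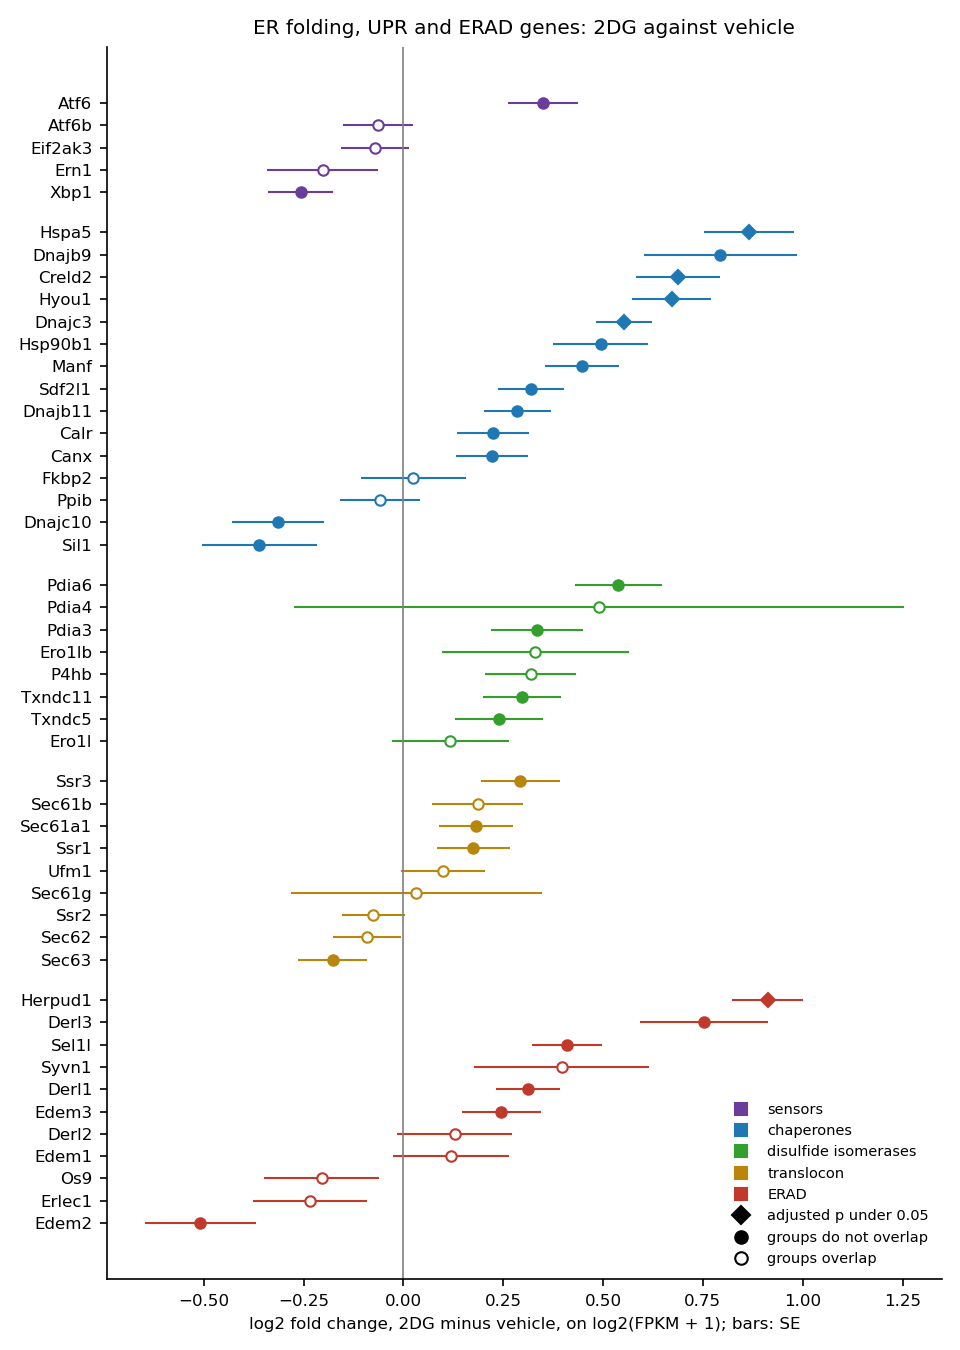
Log2 fold change of each of the 48 members (x axis, 2DG minus vehicle on log2(FPKM + 1), bars show the SE), sorted within class and coloured by class. Diamonds mark the 5 genes past the test, filled symbols the genes whose groups did not overlap and open symbols those that did; 12 of 15 chaperones and all 8 disulfide isomerases lie right of 0, against 1 of 5 sensors.

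Some of the members hold a known ER stress element in their promoters. The sequence was not used to choose the genes. They were listed as ER folding and UPR genes, though, so the share of an ER stress element among them is not independent of that choice. The ER stress response element (ERSE), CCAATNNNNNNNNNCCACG, is the known binding site of ATF6 together with the CCAAT-binding factor NF-Y, and ERSE-II, ATTGGNCCACG, is a compact variant of it. Exact matches were sought on both strands in the 250 bases before the start of each RefSeq gene model (GRCm38.p6). The table used holds a promoter for 40 of the 48 members. An ERSE stood in 10 of these 40 (25%), against 35 of all 27025 genes in the table (0.13%) and 13 of the 7368 genes that were also tested here (0.176%). ERSE-II was found in Herpud1, 1 of 40 members, against 10 of 27025 genes (0.037%).

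The stretches below are shown because they hold the element in the promoters of genes that rose or whose groups did not overlap. Capitals mark the match, which reads from CCAAT to CCACG on the gene's strand or as its reverse complement, and coordinates are those of GRCm38.p6.
Hspa5 (chr2:34772019-34772048, plus strand): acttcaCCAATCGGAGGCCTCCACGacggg
Dnajc3 (chr14:118937821-118937850, plus strand): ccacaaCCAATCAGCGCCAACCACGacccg
Creld2 (chr15:88819514-88819543, plus strand): gcttctCGTGGCGAGCCTCAATTGGtccac
Pdia6 (chr12:17266485-17266514, plus strand): cagagaCCAATGAAAGGCGGCCACGgcgtg
Derl3 (chr10:75893236-75893265, plus strand): ctctacCGTGGGACTTCCCCATTGGctagc
Calr (chr8:84847070-84847099, minus strand): acaacgCGTGGTCGACCCTCATTGGcccat
Canx (chr11:50325795-50325824, minus strand): tattgaCCAATCACCACGCTCCACGaagaa
The match of Hspa5 lies 65 to 47 bases before its start, and those of Dnajc3 and Creld2 lie 105 to 87 and 126 to 108 bases before theirs. That of Hspa5 also lies within an exon of a longer GENCODE transcript.

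A pair of promoters is shown at greater length, because each holds more than 1 match. Hsp90b1 holds an ERSE in each orientation, 212 to 194 and 107 to 89 bases before its start, and Herpud1 holds an ERSE-II 52 to 42 bases before its start and, 112 to 105 bases before it, the reverse complement of TGATGCAA, a form of the C/EBP-ATF element bound by ATF4.
Hsp90b1 (chr10:86705525-86705664, minus strand): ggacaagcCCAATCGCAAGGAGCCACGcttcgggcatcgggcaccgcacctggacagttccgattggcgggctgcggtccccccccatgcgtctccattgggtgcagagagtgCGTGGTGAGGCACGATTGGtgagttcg
Herpud1 (chr8:94386299-94386398, plus strand): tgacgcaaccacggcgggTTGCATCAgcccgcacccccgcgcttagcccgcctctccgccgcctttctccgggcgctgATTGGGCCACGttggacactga
TGATGCAA was found in 1 of 40 members and in 248 of 27025 genes (0.918%). The shorter UPR element TGACGTGG, which XBP1 and ATF6 can bind, was found in Txndc5 and Txndc11, 2 of 40 members (5%), and in 163 of 27025 genes (0.603%). Both of these matches also lie within a GENCODE exon.

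Log2 fold changes had a higher median among members with an ERSE or ERSE-II than among those without. The 11 members with either (Hspa5, Hsp90b1, Dnajc3, Creld2, Calr, Canx, Pdia6, Ero1lb, Syvn1, Derl3 and Herpud1) had a median log2 fold change of 0.54, from 0.22 to 0.91. For 9 of them the 2DG libraries lay wholly above the vehicle libraries, and for Ero1lb and Syvn1 the groups overlapped. Derl3, among the 9, was tested only because its 2DG libraries raised its mean, as stated above. The 29 members without either had a median of 0.12, from -0.51 to 0.79, with 10 wholly above and 4 wholly below. Over all loci tested, 11.9% lay wholly above and 11.8% wholly below. Of the 5 members that rose, 4 had a promoter in the table and each of these 4 held a match; the promoter of Hyou1 was not in it. Outside the members, only genes whose locus carries no other symbol were looked up, so the set may be incomplete. Among these, 6 tested genes held a match (Pan2, Adcy3, Alg12, Rcl1, Rbm39 and Nucb1). Their median log2 fold change was 0.05, from -0.14 to 0.28; none passed the limma test, and in Rcl1 alone the 2DG libraries lay wholly above the vehicle libraries. These shares and medians are descriptions of sequence and level, with no test. The promoter window of Alg12 overlaps that of Creld2 and lies on the other strand.

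**Figure D2:**
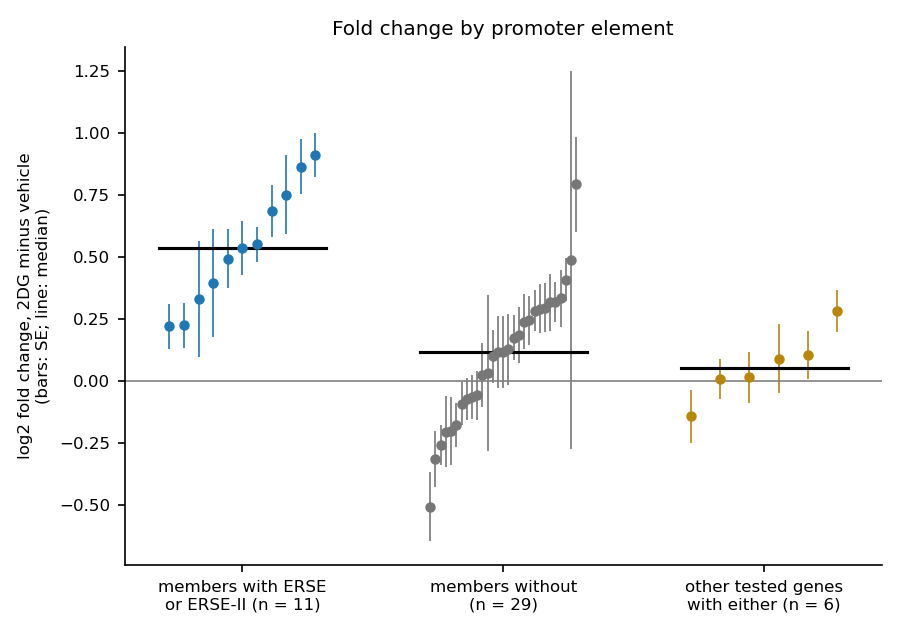
Log2 fold change (y axis, 2DG minus vehicle on log2(FPKM + 1), bars show the SE) of 11 members with an ERSE or ERSE-II in the 250 bases before the start, 29 members without and 6 other tested genes with either. The 6 are genes whose locus carries no other symbol. Black lines are medians, at 0.54, 0.12 and 0.05.

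Among the chaperones 4 of 15 rose and 11 did not pass, where 1.53% of all loci tested were called higher. For 11 of the 15 the 2DG libraries lay wholly above the vehicle libraries and for 2 wholly below. Over all loci tested these shares were 11.9% and 11.8%. The class median log2 fold change was 0.32. Hspa5, which encodes BiP, the main HSP70 chaperone of the ER and the protein that holds the UPR sensors inactive, was at 398, 342 and 356 FPKM in vehicle replicates 1, 2 and 3 and at 636, 615 and 754 FPKM in 2DG replicates 1, 2 and 3. All 2DG libraries stood well above the highest vehicle library. Its log2 fold change was 0.87 ± 0.11 (SE, adjusted p = 0.016). The gene lies on chromosome 2, 34771970 to 34777547 (GENCODE M21, GRCm38, the assembly that mm10 denotes). The adjusted p reached 0.057 with 1 library left out, and the call was lost when that library was vehicle replicate 2 or 3 or 2DG replicate 1, and with equal FPKM sums (adjusted p = 0.069).

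The other 3 chaperone genes that rose act with BiP or beside it. Hyou1 encodes GRP170, which helps BiP exchange its nucleotide (chromosome 9, 44379490 to 44392369). It was at 65.0, 76.0 and 73.3 FPKM in vehicle cultures and 103, 123 and 117 FPKM in 2DG cultures. The log2 fold change was 0.67 ± 0.10 (SE, adjusted p = 0.0185). The groups were clearly separate, but leaving out vehicle replicate 1, 2 or 3 or 2DG replicate 2 or 3 ended the call (adjusted p up to 0.070), as did equal FPKM sums (adjusted p = 0.062). Dnajc3, for the BiP cochaperone p58IPK (chromosome 14, 118937976 to 118981697), was at 30.5, 33.3 and 32.7 FPKM in vehicle cultures and 48.6, 46.7 and 47.6 FPKM in 2DG cultures. It had the narrowest spread of the 4 relative to its level, and the log2 fold change was 0.55 ± 0.07 (SE, adjusted p = 0.016). It lost its call when 2DG replicate 1 or 2 was left out (adjusted p up to 0.070) and with equal FPKM sums (adjusted p = 0.19), and also in the fit with a block for the replicate number (adjusted p = 0.054). Creld2, a gene induced by ER stress whose product is retained in the ER (chromosome 15, 88819646 to 88826683), was at 39.9, 49.1 and 44.9 FPKM in vehicle cultures and 65.1, 76.1 and 76.0 FPKM in 2DG cultures. Its log2 fold change was 0.69 ± 0.11 (SE, adjusted p = 0.021), and leaving out vehicle replicate 1 or 3 or 2DG replicate 2 or 3 ended the call (adjusted p up to 0.080).

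**Figure D3:**
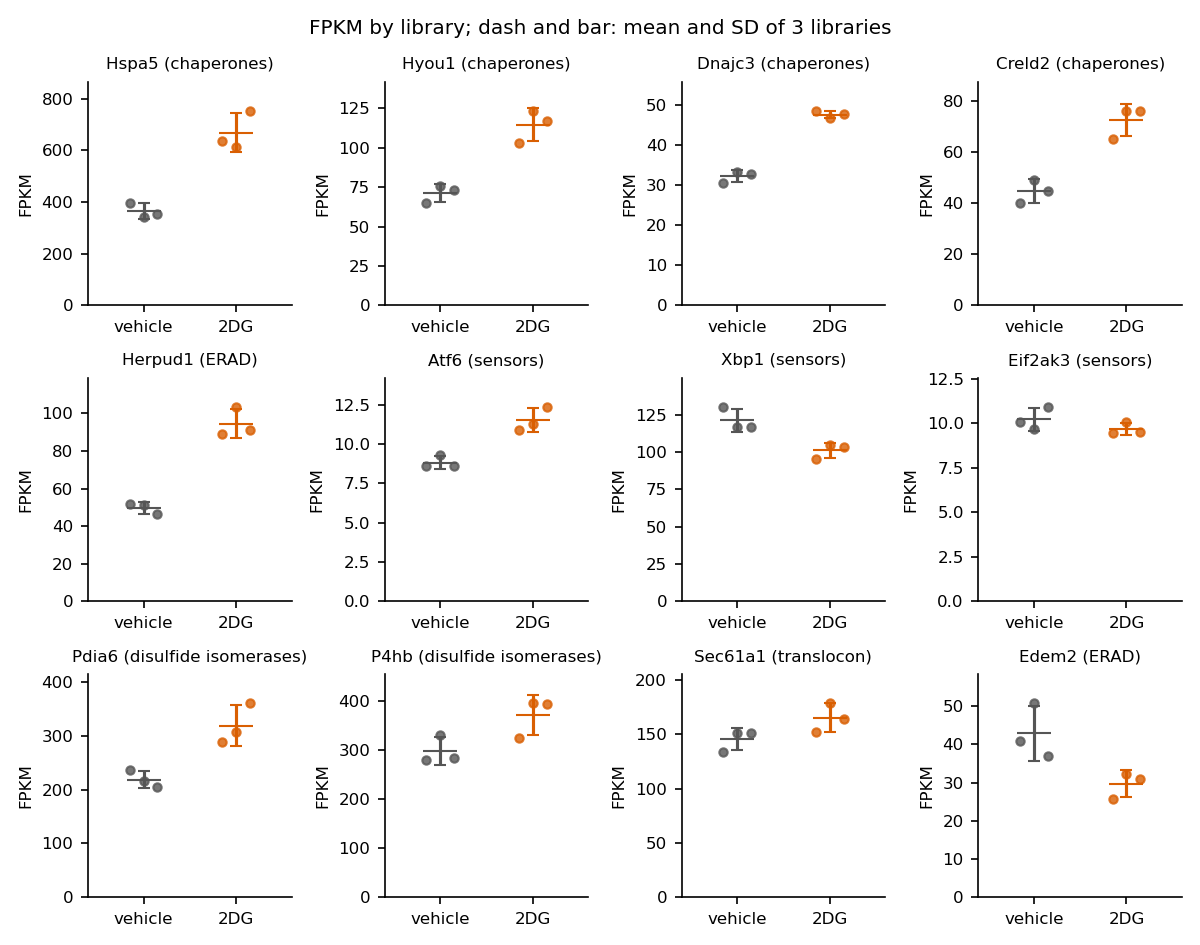
FPKM (y axis, from 0) of 12 members in the 3 vehicle and 3 2DG libraries; points are libraries from replicate 1 to 3, left to right, and the dash and bar are the mean and SD. The groups do not overlap except for Eif2ak3 and P4hb, and Xbp1 and Edem2 lie lower with 2DG.

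Of the other chaperones, 7 had 2DG libraries wholly above the vehicle libraries without passing the test. These were Hsp90b1, Dnajb9, Dnajb11, Sdf2l1, Manf, Calr and Canx, with log2 fold changes from 0.22 to 0.79. Calr, for the lectin chaperone calreticulin, was among the most abundant members, at 405, 465 and 436 FPKM in vehicle cultures and 485, 507 and 534 FPKM in 2DG cultures (adjusted p = 0.26). Its membrane-bound relative calnexin, encoded by Canx, had a log2 fold change of 0.22 with a 95% interval from 0.01 to 0.43 (adjusted p = 0.26). The following genes are named after their values were seen. Hsp90b1, for GRP94, the HSP90 of the ER, was at 275, 224 and 250 FPKM in vehicle cultures and 335, 322 and 401 FPKM in 2DG cultures (adjusted p = 0.084, not passed). Dnajb9, a BiP cochaperone that keeps IRE1 in check, had a fold change of 0.79 ± 0.19 in log2 units (SE, adjusted p = 0.084), on levels of 3.28 to 6.32 FPKM in vehicle cultures and 8.12 to 9.51 FPKM in 2DG cultures. Manf, for a secreted ER stress protein, was at 92.5 to 95.9 FPKM and 119 to 146 FPKM (adjusted p = 0.057).

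A few folding genes hardly differed or lay the other way. Ppib and Fkbp2, which encode ER prolyl isomerases, had overlapping groups, with log2 fold changes of -0.06 and 0.02. Ppib, the third most abundant chaperone gene, was at 369, 387 and 332 FPKM in vehicle cultures and 317, 357 and 372 FPKM in 2DG cultures, and the 95% interval of its log2 fold change ran from -0.30 to 0.18. Sil1 and Dnajc10, named after their values were seen, were lower in every 2DG library than in any vehicle library and did not pass (adjusted p = 0.25 and 0.21). Sil1, a nucleotide exchange factor for BiP, was at 15.4, 15.7 and 15.8 FPKM in vehicle cultures and 9.69, 11.8 and 14.96 FPKM in 2DG cultures. Dnajc10, for a disulfide reductase that serves ERAD, was at 46.3, 37.4 and 37.1 FPKM in vehicle cultures and 32.7, 28.9 and 34.7 FPKM in 2DG cultures. The summed FPKM of the 15 chaperone genes was 2119 ± 32.2 with vehicle and 2772 ± 214 with 2DG (SD, n = 3 each). Hspa5 made up 46.4% of that difference and Hsp90b1 15.7%.

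Of the 8 disulfide isomerase genes none passed the limma test in either direction, and all 8 had a positive log2 fold change. At an unadjusted p under 0.05, 4 were higher and 0 lower, and 4 had 2DG libraries wholly above the vehicle libraries (Pdia3, Pdia6, Txndc5 and Txndc11). The class median was 0.32. Pdia6, for a disulfide isomerase that also binds IRE1, was at 236, 215 and 204 FPKM in vehicle cultures and 289, 306 and 361 FPKM in 2DG cultures. Its log2 fold change was 0.54 ± 0.11 (SE, adjusted p = 0.053), and without small RNA genes in the fit it passed (adjusted p = 0.024). P4hb, for protein disulfide isomerase itself, was at 279, 330 and 283 FPKM in vehicle cultures and 325, 396 and 394 FPKM in 2DG cultures, where 2DG replicate 1 lay below vehicle replicate 2 (adjusted p = 0.21). The oxidase genes Ero1l and Ero1lb, which recharge the isomerases, had overlapping groups, with 95% intervals of -0.23 to 0.46 and -0.22 to 0.88.

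Pdia4 needs separate treatment. Its locus also carries the symbol Mir704, a microRNA gene of 77 bases that lies inside Pdia4 on the same strand (chromosome 6, 47803576 to 47803652). The locus was at 106, 461 and 106 FPKM in vehicle cultures and 141, 153 and 677 FPKM in 2DG cultures. Vehicle replicate 2 and 2DG replicate 3 stood far above the other libraries of their groups. The log2 fold change of 0.49 ± 0.76 (SE, adjusted p = 0.79) turned to -0.24 without 2DG replicate 3 and was 1.19 without vehicle replicate 2. The parts of Pdia4 and of Mir704 in these values were not tested. Without this locus the isomerase genes summed to 692 ± 31.3 FPKM in vehicle cultures and 902 ± 88.2 FPKM in 2DG cultures (SD, n = 3 each), and Pdia6 made up 47.6% and P4hb 35.2% of the difference.

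None of the 5 sensor genes passed the limma test, 1 was higher and 1 lower at an unadjusted p under 0.05, and the class median was -0.07. Atf6 (chromosome 1, 170704674 to 170867771) was at 8.57, 9.27 and 8.62 FPKM in vehicle cultures and 10.9, 11.3 and 12.4 FPKM in 2DG cultures. Every 2DG library lay above every vehicle library, and the log2 fold change was 0.35 ± 0.09 (SE, adjusted p = 0.090). Xbp1 (chromosome 11, 5520659 to 5525893), the most abundant transcript of the class and the target of IRE1 splicing, lay the other way, at 130, 117 and 117 FPKM in vehicle cultures and 95.5, 105 and 103 FPKM in 2DG cultures. Its log2 fold change was -0.26 ± 0.08 (SE, adjusted p = 0.16), and it was between -0.28 and -0.20 without any single library.

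The remaining sensors had overlapping groups. Ern1, which encodes IRE1 (chromosome 11, 106394650 to 106487852), was at 2.14, 1.83 and 1.73 FPKM in vehicle cultures and 1.56, 1.75 and 1.26 FPKM in 2DG cultures. Eif2ak3, which encodes PERK (chromosome 6, 70844515 to 70905245), was at 10.1, 9.69 and 10.9 FPKM in vehicle cultures and 9.44, 10.1 and 9.54 FPKM in 2DG cultures. Atf6b, the paralogue of Atf6 (chromosome 17, 34647146 to 34655074), was at 13.4, 13.1 and 13.8 FPKM in vehicle cultures and 11.6, 13.3 and 13.6 FPKM in 2DG cultures. The 95% intervals of their log2 fold changes were -0.53 to 0.12 for Ern1, -0.27 to 0.13 for Eif2ak3 and -0.27 to 0.14 for Atf6b.

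Translocon genes differed least among the classes with positive medians. Of 9 genes, Ufm1 included, none passed the limma test, 1 was higher and 0 lower at an unadjusted p under 0.05, and the class median was 0.10. Sec61a1, for the channel subunit of the translocon, was at 134, 151 and 152 FPKM in vehicle cultures and 153, 179 and 164 FPKM in 2DG cultures, groups that nearly touch (adjusted p = 0.36). Ssr3, a subunit of the translocon-associated protein complex, was at 133, 111 and 113 FPKM in vehicle cultures and 148, 134 and 155 FPKM in 2DG cultures (adjusted p = 0.18). Sec61b, for a small channel subunit, had overlapping groups at 118, 91.3 and 110 FPKM and 118, 113 and 131 FPKM. Ssr1 lay wholly above and Sec63, for the J-domain protein that recruits BiP to the channel, wholly below the vehicle libraries. Sec61g, Sec62, Ssr2 and Ufm1, for a ubiquitin-like modifier of ribosomes at the ER, overlapped. The summed FPKM of the class was 552 ± 25.5 with vehicle and 610 ± 27.5 with 2DG (SD, n = 3 each).

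In ERAD 1 of 11 genes rose, 10 did not pass, and the class median was 0.25. Of all loci tested, 1.53% were called higher. Herpud1, for a membrane protein that assembles the HRD1 degradation complex (chromosome 8, 94386438 to 94395377), had the largest log2 fold change of the 48 members. It was at 51.6, 51.3 and 46.2 FPKM in vehicle cultures and 89.0, 103 and 91.0 FPKM in 2DG cultures. The lowest 2DG library stood far above the highest vehicle library. Its log2 fold change was 0.91 ± 0.09 (SE, adjusted p = 0.0054), and it kept its call whichever library was left out (adjusted p up to 0.025) and with equal FPKM sums (adjusted p = 0.024). It made up 83.6% of the difference in the summed FPKM of ERAD genes, 258 ± 13.0 with vehicle and 312 ± 13.6 with 2DG (SD, n = 3 each).

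Components of the HRD1 complex around it did not pass. Derl1, for a channel-forming derlin, was at 43.3, 43.2 and 39.7 FPKM in vehicle cultures and 50.2, 50.7 and 56.4 FPKM in 2DG cultures (adjusted p = 0.098). Syvn1, for the ubiquitin ligase HRD1 itself, had overlapping groups, at 4.09, 7.19 and 6.98 FPKM and 8.30, 9.90 and 6.503 FPKM. Sel1l, its partner, was named after its values were seen and lay at 16.6 to 18.7 FPKM in vehicle cultures and 21.7 to 24.8 FPKM in 2DG cultures (adjusted p = 0.058; 0.0425 without small RNA genes in the fit). Derl3, named on the same ground, was the member with the largest ratio of means, 2.72, but at low levels of 0.446, 0.806 and 0.728 FPKM in vehicle cultures and 2.16, 1.57 and 1.66 FPKM in 2DG cultures (adjusted p = 0.060). Its vehicle mean was 0.66 FPKM, so it reached the mean of 1 FPKM required for testing only through the 2DG libraries. The pseudocount of 1 understates the change of such low genes. The row H47 was at 26.4 to 35.6 FPKM in vehicle cultures and 39.4 to 51.8 FPKM in 2DG cultures (adjusted p = 0.115).

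The mannosidase-like and lectin genes that pick glycoproteins for ERAD did not share one direction. Edem1 was at 50.7, 35.9 and 36.2 FPKM in vehicle cultures and 42.0, 41.7 and 48.5 FPKM in 2DG cultures, so its groups overlapped. Edem3 had 2DG libraries wholly above the vehicle libraries (log2 fold change 0.25, adjusted p = 0.26). Edem2, named after its values were seen, had the lowest log2 fold change of the 48 members, -0.51 ± 0.14 (SE, adjusted p = 0.12), from 40.8, 50.8 and 36.9 FPKM in vehicle cultures to 25.8, 32.3 and 30.97 FPKM in 2DG cultures. The lectin genes Os9 and Erlec1 had overlapping groups and log2 fold changes of -0.20 and -0.23. Derl2 also overlapped.

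**Figure D4:**
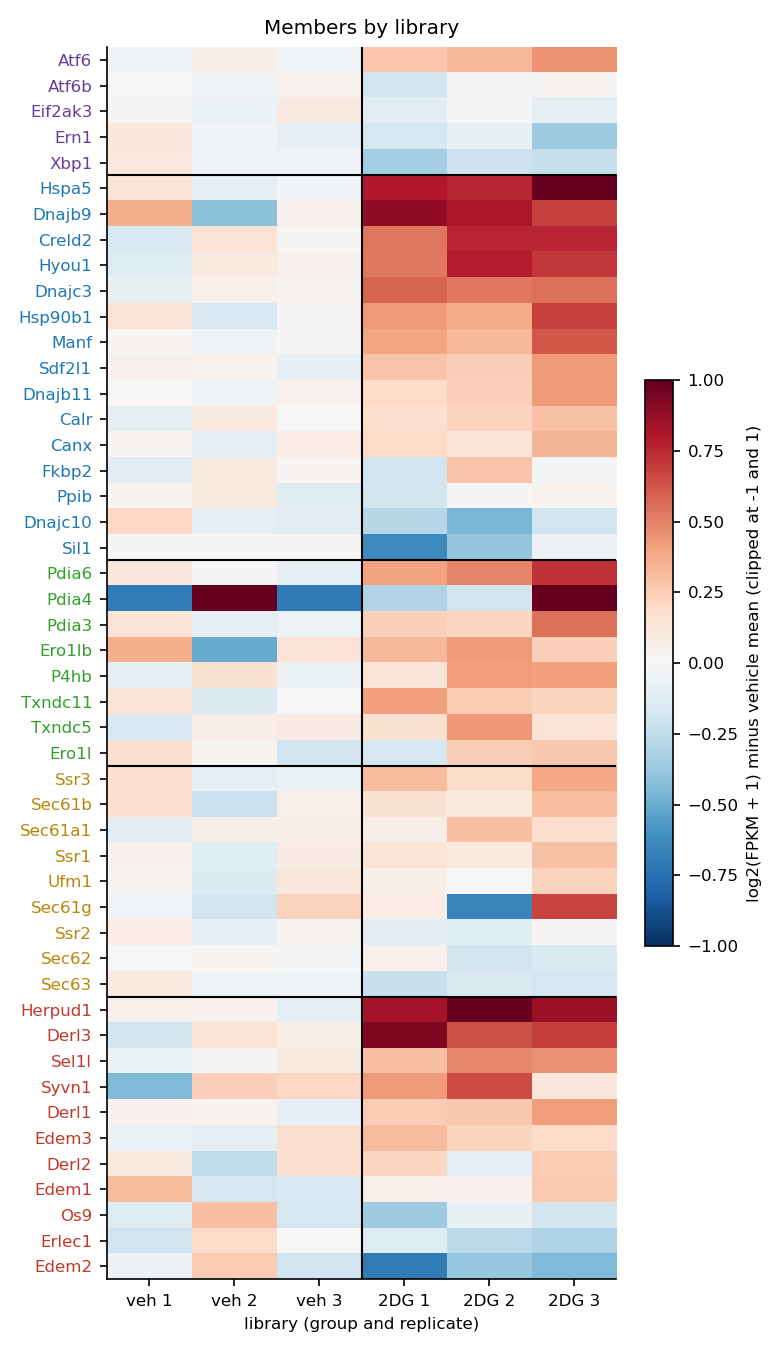
Each of the 48 members (rows, by class from sensors at the top to ERAD at the bottom) in each library (columns), as log2(FPKM + 1) minus the mean of the vehicle libraries, with colours clipped at -1 and 1. Red fills most chaperone, isomerase and upper ERAD rows in all 3 2DG columns, while Pdia4 is red in vehicle replicate 2 and 2DG replicate 3 and blue elsewhere.

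Other genes of the same pathways were taken from lists set by function. Among 24 tested genes of protein targeting, insertion and signal peptidase 1 rose and none fell by limma (3 higher and 1 lower at an unadjusted p under 0.05). That gene, Sec11c, a catalytic subunit of the signal peptidase, was at 85.1, 100 and 81.6 FPKM in vehicle cultures and 172, 172 and 156 FPKM in 2DG cultures. The groups lay far apart, and the log2 fold change was 0.90 ± 0.10 (SE, adjusted p = 0.0080). Among 20 tested further folding genes 1 fell and none rose by limma (2 higher and 3 lower at an unadjusted p under 0.05). This was Cnpy2, for an ER-resident saposin-like protein, at 42.7, 42.3 and 40.4 FPKM in vehicle cultures and 31.7, 30.5 and 31.8 FPKM in 2DG cultures (log2 fold change -0.40 ± 0.07, SE, adjusted p = 0.030).

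In the other lists reported here no gene passed the limma test. The PERK arm list is named by function, and PERK activity was not measured. Of its 10 genes 5 were higher and 1 lower at an unadjusted p under 0.05, with a median log2 fold change of 0.22. Its gene of smallest p was Atf3, a stress-induced transcription factor, at 5.47, 7.41 and 3.37 FPKM in vehicle cultures and 1.33, 2.08 and 1.68 FPKM in 2DG cultures (adjusted p = 0.053). The following genes of this arm are named after their values were seen. Chac1, which encodes a glutathione-degrading enzyme induced by ATF4, was at 4.16, 4.38 and 5.53 FPKM in vehicle cultures and 10.7, 18.9 and 7.89 FPKM in 2DG cultures (adjusted p = 0.079). Sesn2 and Atf4, for a stress-induced regulator of growth signalling and for the main transcription factor of the arm, also had 2DG libraries wholly above the vehicle libraries, with log2 fold changes of 0.47 and 0.35 (adjusted p = 0.065 and 0.23). Atf3 alone in the arm lay wholly below. Ddit3, which encodes the death-associated factor CHOP, had overlapping groups, at 13.1, 37.2 and 21.5 FPKM in vehicle cultures and 16.9, 32.3 and 13.4 FPKM in 2DG cultures. Of the 11 oligosaccharyltransferase genes, which attach N-glycans, 2 were higher and 0 lower at an unadjusted p under 0.05, and Magt1 had the smallest p (adjusted p = 0.21). The same counts were 0 and 2 of 8 for other UPR signalling genes (Creb3, adjusted p = 0.19), 0 and 1 of 22 for other ERAD genes (Ubac2, adjusted p = 0.060) and 2 and 0 of 20 for ER export and retrieval (Mcfd2, adjusted p = 0.067). The medians of these 4 lists lay between -0.04 and 0.04.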

How the data were processed

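Libraries of 6 Th17 cultures, 3 with vehicle and 3 with 2DG, were analysed. TopHat2 2.1.0, Cuffdiff 2.2.1.3, Cuffnorm 2.2.1.1, Cufflinks 2.2.1.0 and the mm10 build appear in the submitters' processing notes, without roles, settings, annotation or strand. The authors deposited FPKM values, normalized by them across libraries and given per locus in 1 table. The unit is read from Cuffnorm's layout, since the header names none. Values of genes that share reads with copies, overlapping genes or small RNAs are uncertain.

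Members were matched by symbol, and list genes by symbol or RefSeq synonym. Values were tested as log2(FPKM + 1) with limma 3.58.1 (R 4.3.3) wherever the mean over libraries reached 1 FPKM. Group was the only term; eBayes was run with trend, tests were two-sided, and Benjamini-Hochberg adjustment ran over all loci tested (threshold 0.05). Folds not given as log2 compare mean FPKM. For 1 gene, an exact permutation test of 3 against 3 libraries cannot go below 0.1. On simulated data with 200 of 10228 genes changed and independent normal noise, 56.1% of 1.5-fold, 90.4% of 2-fold and 99.1% of 4-fold changes were recovered, with 3.65% of calls false.

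The members, lists, alternatives and rule for named genes were chosen with earlier results of these data known. Values in every library are given for members past the threshold, all sensors and the 3 most abundant members per class. Of each pathway list, genes past the threshold are named, or else the 1 of smallest p. A planned pathway list and a planned marker list are not reported here. Other genes singled out are named as chosen after their values were seen, or by ranges and counts. Promoters come from RefSeq (GRCm38.p6), gene coordinates from GENCODE M21. Protein ends were not described, since no protein sequences were used here.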

Additional observations from a re-analysis of the deposited data

How the results depend on the processing

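The number of members higher with 2DG, 5, was 11 without small RNA genes in the fit, 11 with robust eBayes and 8 with loci of status OK only. It was 2 with equal FPKM sums, 1 with replicates 2 and 3 only (Herpud1), and 2 to 3 with 1 library left out. Over all loci, 156 were called higher in the main fit, and in the same alternatives 262, 247, 196, 95, 43 and 52 to 98. The cause was not tested. In every alternative run, 0 members were called lower. With the replicate block, a term for the replicate number, 4 members and 57 of all loci were called higher. Dnajc3 lost its call there (adjusted p = 0.054). The sample titles carry the numbers 17, 42 and 43, each on 1 vehicle and 1 2DG sample, as replicates 1, 2 and 3, but no label says what they mark. Deviations of same-numbered libraries from their group means correlated at -0.05, 0.38 and -0.20, so the samples were not treated as paired. Across different numbers, vehicle replicate 1 with 2DG replicate 3 was at 0.38 and vehicle replicate 3 with 2DG replicate 1 at 0.29. The remaining pairs were negative, down to -0.32. Whether libraries of the groups share an origin under other numbers was not tested, and the replicate block does not model it. Class medians kept within the spread between libraries except with replicates 2 and 3 only, where they were 0.41 for disulfide isomerases and 0.17 for ERAD. With 1 library left out they ran from 0.27 to 0.36 for chaperones, 0.28 to 0.36 for isomerases, 0.20 to 0.27 for ERAD, 0.03 to 0.16 for the translocon and -0.11 to -0.05 for sensors.

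Of single members, none past the test changed direction. Log2 fold changes turned sign for 6 others. With 1 library left out, Atf6b ran from -0.10 to 0.0035, Ppib from -0.12 to 0.0089, Fkbp2 from -0.11 (and -0.029 without vehicle replicate 1) to 0.14, Sec61g from -0.29 (and -0.068 without vehicle replicate 2) to 0.38, Derl2 from -0.00069 to 0.24 and Pdia4 from -0.24 to 1.19. Atf6b was at 0.0015, Ppib at 0.023 and Sec61g at -0.0056 with replicates 2 and 3 only, and Ppib was at 0.017 with quantile normalization. The files give no counts, so what depth limits cannot be stated.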
